A study of Rattus norvegicus with 12 samples.

Results

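The genes described here were 9 transcription factors that mark position along the gut: Pdx1, Gata4, Gata5, Gata6, Cdx1, Cdx2, Hnf4a, Osr2 and Onecut2. They were chosen by gene symbol, with earlier results of these data known. Each probe set (the group of short probes that reads 1 transcript on an Affymetrix array) whose annotation gave 1 of these symbols alone was taken, which gave 16 probe sets for 9 of the 14217 genes on the array. All 16 passed the filter on dim signals.

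RNA was profiled in scrapes of the mucosa of duodenum and jejunum from Belgrade rats, a strain that carries the b allele of Slc11a2, the gene of the iron transporter DMT1. The homozygotes (b/b) are known to be anaemic, and the heterozygotes (+/b) served as the controls. So every rat carried at least 1 copy of the mutant allele, and wild-type rats were not analysed here. The series design describes 3 groups of rats of each genotype, and each group supplied both tissues with 1 array each.

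The 12 arrays therefore fell into 4 groups of 3, namely b/b jejunum, b/b duodenum, +/b jejunum and +/b duodenum. The titles of the +/b duodenum arrays write the genotype as +b, which was read as +/b. A replicate is a group of rats and not a single animal, and neither age nor sex nor diet is recorded in the labels. Signals are on the arrays' linear scale after each array was brought to a trimmed mean of 500. Changes are differences of log2(signal + 16), which understates the changes of dim genes, and each stands with its standard error (SE). A change was called when its Benjamini-Hochberg adjusted p in limma, over all 17694 probe sets tested, was under 0.05.

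The small intestine is a single tube of epithelium in which neighbouring stretches absorb different nutrients, and transcription factors laid down in the embryo keep those stretches distinct in the adult. CDX2 and CDX1 are homeodomain proteins that give the epithelium its intestinal character, and HNF4A is a nuclear receptor that acts in absorptive cells along the whole intestine. In the mouse, GATA4 is present in the duodenum and jejunum and absent from the distal ileum. PDX1 is best known as the homeodomain factor of the pancreas, and it is also made in the neighbouring antrum and duodenum.

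In the rat assembly GRCr8, Pdx1 and Cdx2 are adjacent protein-coding genes on chromosome 12, with 0 protein-coding genes between them. RefSeq promoter sequences were found for 5 of the 9 members. Those shown are Pdx1 and Cdx2, neighbours whose signals differed in their pattern between the segments, and both starts of Hnf4a. The Hnf4a starts were taken because its 3 probe sets had changes of unlike sign in b/b rats, though 0 of the 3 were called. The Pdx1 window is chr12:12799157-12799406 on the minus strand and the Cdx2 window is chr12:12762654-12762768 on the plus strand. The Hnf4a windows are chr3:172605970-172606219 for the upstream start and chr3:172641586-172641835 for the downstream start, both on the plus strand. Each reads 5′ to 3′ toward the start of transcription, and capitals mark matches to the short motifs named after the sequences.
Pdx1: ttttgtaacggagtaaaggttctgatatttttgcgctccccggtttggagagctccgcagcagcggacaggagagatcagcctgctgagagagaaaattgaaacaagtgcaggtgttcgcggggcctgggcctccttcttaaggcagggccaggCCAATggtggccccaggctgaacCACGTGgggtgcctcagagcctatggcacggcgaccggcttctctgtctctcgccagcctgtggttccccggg
Cdx2: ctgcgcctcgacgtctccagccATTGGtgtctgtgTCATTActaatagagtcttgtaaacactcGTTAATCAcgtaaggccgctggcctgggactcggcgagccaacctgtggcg
Hnf4a upstream start: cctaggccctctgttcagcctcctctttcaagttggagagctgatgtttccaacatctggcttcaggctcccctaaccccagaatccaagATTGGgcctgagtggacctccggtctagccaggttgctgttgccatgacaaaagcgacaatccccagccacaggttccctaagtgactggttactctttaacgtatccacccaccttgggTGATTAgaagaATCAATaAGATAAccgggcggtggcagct
Hnf4a downstream start: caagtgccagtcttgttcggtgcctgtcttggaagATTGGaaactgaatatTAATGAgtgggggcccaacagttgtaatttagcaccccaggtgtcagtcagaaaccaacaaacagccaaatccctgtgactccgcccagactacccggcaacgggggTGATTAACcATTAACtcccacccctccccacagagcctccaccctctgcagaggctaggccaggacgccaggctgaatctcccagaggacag

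The motifs were searched on both strands. They were AGATAA or TGATAA for GATA factors, GTTAAT or GTTAAC for an HNF1 half-site, ATCAAT or ATCGAT for Onecut factors, TAATNA for homeodomain factors, TTTATNG for CDX factors, CACGTG for an E-box and CCAAT for a CCAAT box. The Pdx1 window held 1 CCAAT box and 1 E-box. Of 33469 promoter windows of 250 bases, 34.0% held a CCAAT match and 5.59% an E-box match. The Cdx2 window of 115 bases, which stops where the annotated gene begins, held an HNF1 half-site (4.42% of windows of that length) that overlaps 1 of its 2 homeodomain matches (14.5%), and a CCAAT box (16.5%). The windows compared with it were the first 115 bases of each window of 250, wherever the annotated gene began. The upstream Hnf4a window held an Onecut match (7.78% of windows of 250 bases) and a GATA match (16.9%) near its end, besides a homeodomain match (25.4%) and a CCAAT box. The downstream Hnf4a window held 2 HNF1 half-sites (8.61%), 1 of them overlapping a homeodomain match, with a further homeodomain match and a CCAAT box. Such matches describe the letters of a window and are no measurement of binding.

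Median signals of the scaled arrays were 108 to 182. The median Spearman correlation of an array with the other 11 ranged from 0.836 in b/b duodenum replicate 1, which stood apart, to 0.917. Replicates 2 and 3 of +/b duodenum had been deposited at another scale and were multiplied by 9.69 and 3.95. All 10 enterocyte markers on the array were tested and 0 were called between the segments in limma. With the rat groups as a block 1 was called lower in the jejunum in +/b rats and 1 for the mean of both genotypes. Their median change, jejunum minus duodenum, was -0.15 in b/b rats and -0.40 in +/b rats, with 0 of 10 genes above 0 in either. Their summed signal was 196591 to 536717 in b/b jejunum and 203299 to 744160 in b/b duodenum, against 202941 to 461657 in +/b jejunum and 288697 to 537726 in +/b duodenum. In every group this sum was highest in replicate 1 and lowest in replicate 3. Of 16 exocrine pancreas markers 13 were on the array. Their summed signal was 8118 in replicate 3 of b/b duodenum, 166225 in replicate 2 of +/b duodenum and 1177 to 1879 in the other 10 arrays, and of the 11 bright enough to be tested 0 were called between the segments in limma. Their median change was -1.12 in b/b rats and -2.64 in +/b rats, with 0 of 11 genes above 0 in either.

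Of the 9 genes, 3 differed between jejunum and duodenum. Pdx1 and Onecut2 were lower and Osr2 was higher in the jejunum, each with the 6 jejunal arrays apart from the 6 duodenal ones. In b/b rats 5 of the 16 member probe sets were called, 1 higher and 4 lower, against 0.763% of all probe sets tested. In +/b rats 1 of 16 was called, against 0.0565%. For the mean of both genotypes 6 of 16 were called, against 1.40%, and these belonged to the same 3 genes. With the group of rats as a block in the fit, 7 of 16 were called in b/b rats (2.44% of all probe sets), 2 of 16 in +/b rats (0.486%) and 6 of 16 for the mean of both (4.49%). The 3 jejunal and 3 duodenal arrays did not overlap on 6 of 16 member probe sets in b/b rats (14.8% of all) and on 7 of 16 in +/b rats (10.8%). Because the members were chosen with earlier results known, these shares describe the set and do not test it.

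Pdx1 had signals of 44.9, 38.1 and 121 in b/b jejunum (replicates 1, 2 and 3), against 1132, 1777 and 2707 in b/b duodenum. Signals in +/b rats were 15.1, 86.3 and 127 in jejunum, against 969, 539 and 1126 in duodenum. The brightest jejunal array was thus well below the dimmest duodenal array, and the highest Pdx1 of all 12 arrays was in b/b duodenum replicate 3. The fitted change, jejunum minus duodenum, was -4.53 ± 0.53 in b/b rats (limma adjusted p = 0.000828, n = 3 per group), which is 23.1-fold lower. In +/b rats it was -3.48 ± 0.53 (limma adjusted p = 0.0359), or 11.1-fold lower. The mean of both genotypes was -4.00 ± 0.38 (limma adjusted p = 9.3e-05).

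The Pdx1 change was called in 6 of 6 fits that left out 1 array of the b/b groups, and in 12 of 12 such fits of the mean of both genotypes. In +/b rats the call held in 2 of 6. It was lost without jejunum replicate 1 (-2.82) or 2 (-3.68) and without duodenum replicate 1 (-3.37) or 3 (-3.27), with limma adjusted p between 0.121 and 0.164. In each of the 6 groups of rats the jejunum had less Pdx1 than the duodenum, by -5.05 to -4.24 in b/b and by -4.98 to -2.44 in +/b. In a scrape, fewer cells that express a gene and less RNA per cell cannot be told apart, which holds for every result here. The pancreas also expresses Pdx1. The array with by far the highest pancreas marker signal, +/b duodenum replicate 2 (166225), had the lowest Pdx1 of the 6 duodenal arrays (539). The array with the next highest, b/b duodenum replicate 3 (8118), had the highest Pdx1 of the 6 (2707). The part of pancreas RNA in the Pdx1 values was not tested. Without +/b duodenum replicate 2 and b/b duodenum replicate 3, Pdx1 changed by -4.22 in b/b rats (limma adjusted p = 0.0108) and by -3.79 in +/b rats (limma adjusted p = 0.0456).

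Onecut2 encodes a cut-homeodomain factor known from liver and pancreas development. The brightest of its 4 probe sets had signals of 1100.3, 287 and 1664 in b/b jejunum, against 3692, 4705 and 5644 in b/b duodenum. In +/b rats the same probe set had 691, 946 and 2209.8 in jejunum, against 4481, 3887 and 4744 in duodenum. The segments did not overlap, and the jejunal arrays were more spread out than the duodenal ones. On the other 3 probe sets the jejunal arrays ran from 54.5 to 1055 and the duodenal arrays from 779.9 to 3639, and on each of them the 6 jejunal arrays were again all below the 6 duodenal arrays.

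The 4 Onecut2 probe sets read 1 gene and are not independent. Their changes in b/b rats lay between -3.14 and -2.22, and 3 of 4 were called (limma adjusted p = 0.0318 to 0.129). The remaining one was called when the group of rats was a block (limma adjusted p = 0.0241). In +/b rats the changes lay between -1.98 and -1.79 and 0 of 4 were called (limma adjusted p = 0.362 to 0.787), although 4 of 4 had an unadjusted p under 0.05. With the block, the +/b adjusted p ran from 0.0738 to 0.219 in limma. For the mean of both genotypes 4 of 4 were called, with changes of -2.46 to -2.10 (limma adjusted p = 0.00485 to 0.0172). The brightest probe set was called in 12 of 12 fits of that mean that left out 1 array, but in 2 of 6 such fits in b/b rats. There the call was lost without jejunum replicate 1 (-2.70) or 2 (-1.76) and without duodenum replicate 2 (-2.47) or 3 (-2.34), with limma adjusted p between 0.0734 and 0.157. Without both arrays deposited at another scale the brightest probe set was not called for the mean (-2.23, limma adjusted p = 0.0576), and 0 of the 4 were called in b/b rats, where the 3 otherwise called had a limma adjusted p between 0.0508 and 0.0694.

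Osr2 encodes a zinc finger protein of the odd-skipped family, which in the mouse is known for palate and limb development. It had signals of 1305, 1162 and 650.3 in b/b jejunum, against 63.9, 27.8 and 23.4 in b/b duodenum. The +/b rats had 1226, 741 and 474 in jejunum, against 52.7, 256 and 60.4 in duodenum. Every jejunal array was above every duodenal array, and +/b duodenum replicate 2 stood above the other 5 duodenal arrays. That array had been multiplied by 9.69 and had the highest pancreas marker signal of all arrays (166225). The part of either in its Osr2 value was not tested.

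Osr2 changed by 4.29 ± 0.51 in b/b rats (limma adjusted p = 0.000865), which is 19.6-fold higher in the jejunum. In +/b rats the change was 2.78 ± 0.51 and missed the threshold (limma adjusted p = 0.0907), with a 95% interval from 1.68 to 3.88. The rat groups as a block gave a limma adjusted p of 0.0149 for it. Without +/b duodenum replicate 2 the change was 3.41 (limma adjusted p = 0.0124), and in the other 5 fits that left out 1 +/b array it was not called. The mean of both genotypes was 3.54 ± 0.36 (limma adjusted p = 0.000168), or 11.6-fold higher, and was called in 12 of 12 fits that left out 1 array.

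Since Osr2 is known from mesenchyme in the mouse, 13 smooth muscle and fibroblast markers were read beside it. Their summed signal was 5509 to 12012 in b/b jejunum, against 4110 to 5041 in b/b duodenum. It was 5701 to 8310 in +/b jejunum, against 4421 to 8525 in +/b duodenum. The median change of the 13 genes was 0.58 in b/b rats and 0.28 in +/b rats, and 0 of 13 were called in limma in either genotype or in their mean. Above 0 were 12 of 13 in b/b rats and 9 of 13 in +/b rats, and with the rat groups as a block 2 were called higher in b/b rats, 0 in +/b rats and 1 for the mean. Their part in the Osr2 change was not tested.

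**Figure D1:**
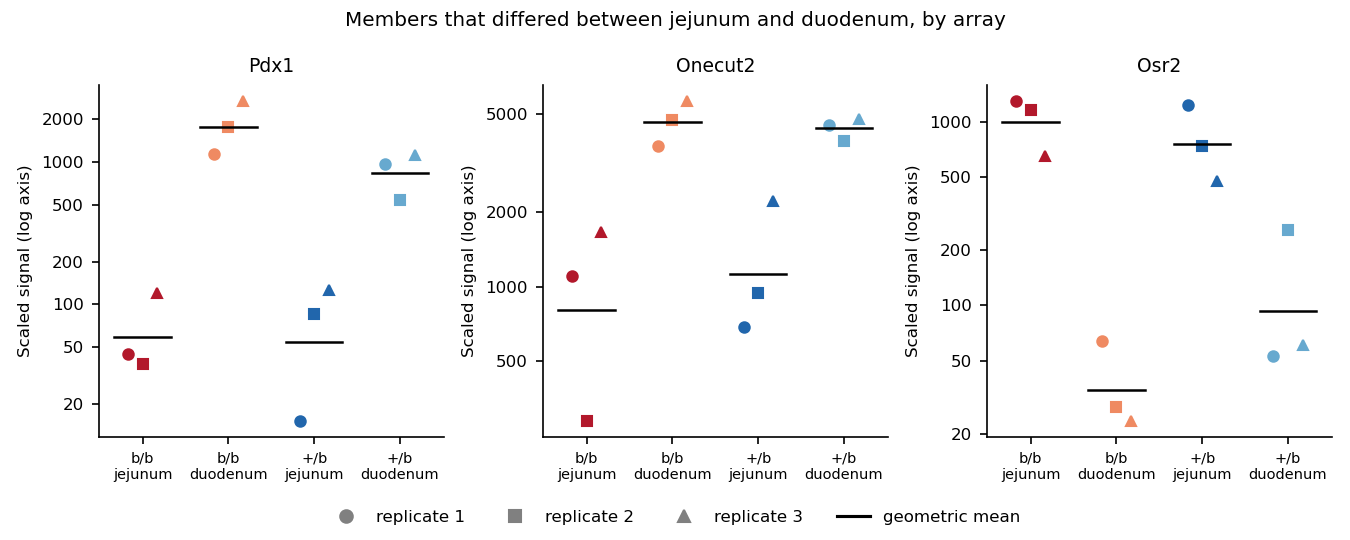
Scaled signal (log axis) of Pdx1, Onecut2 (brightest probe set) and Osr2 in each of the 12 arrays, grouped by genotype and segment, with the geometric mean of each group as a line. For Pdx1 the jejunal arrays reach 127 and the duodenal arrays start at 539, and for Osr2 the jejunal arrays start at 474 and the duodenal arrays reach 256.

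The other 6 genes, read by 10 probe sets, showed much smaller differences between the segments. Of these 10 probe sets 0 were called in either genotype or in their mean, where their changes lay between -0.34 and 0.50 (limma adjusted p = 0.313 to 0.976). At an unadjusted p under 0.05 there were 1 in b/b rats, 0 in +/b rats and 2 for the mean, so that over all 16 members there were 7, 6 and 8, against 9.77%, 5.36% and 12.4% of all probe sets. The intervals of the mean changes together ran from -0.63 to 1.16. On 0 of the 10 probe sets were the 6 jejunal and 6 duodenal arrays apart. Over all members this held for 6 of 16 probe sets, against 1.74% of all probe sets. These 6 were the probe sets of Pdx1, Osr2 and Onecut2, and 4 of them read Onecut2.

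Cdx2, the homeodomain factor that specifies intestinal epithelium, had signals of 3251, 3138 and 2975 in b/b jejunum, against 1885, 2473 and 3073 in b/b duodenum. The +/b signals were 3162, 3280.3 and 3271 in jejunum, against 2489.6, 2529 and 3260.1 in duodenum. Duodenal replicate 3 of both genotypes reached the jejunal range, so the segments overlapped in both genotypes. The mean change was 0.30 ± 0.14 (limma adjusted p = 0.389), with a 95% interval from 0.01 to 0.59. The gene next to it, Pdx1, changed by -4.00 in the same fit.

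Cdx1, its relative, is known in the mouse to be strongest in the crypts. It had 935, 509 and 431 in b/b jejunum, against 774, 366 and 208 in b/b duodenum, and the groups overlapped. Its +/b signals were 834, 717 and 333 in jejunum, against 455, 423 and 413 in duodenum. In both genotypes replicate 3 had the lowest Cdx1 of its jejunal group, and also the lowest summed enterocyte marker signal. The mean change was 0.50 ± 0.31 (limma adjusted p = 0.543, 95% interval from -0.15 to 1.16).

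Gata4, a zinc finger factor of the proximal intestine, had signals on its brighter probe set of 3175, 2058 and 2119 in b/b jejunum, against 2926, 3732 and 2915 in b/b duodenum. The +/b arrays gave 2345, 2354 and 2408 in jejunum, against 2956, 2677 and 2995 in duodenum. The +/b groups did not overlap, as was so for 10.8% of all probe sets. The change was -0.40 ± 0.19 in b/b rats (limma adjusted p = 0.526) and -0.28 ± 0.19 in +/b rats (limma adjusted p = 0.947). For the mean of both it was -0.34 ± 0.14 (limma adjusted p = 0.313), with an interval from -0.63 to -0.05.

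Gata5, another zinc finger factor of the family, had 2686, 2632 and 1624 in b/b jejunum, against 1998, 1328 and 595 in b/b duodenum. The +/b arrays read 1896, 1938 and 1238 in jejunum, against 1508, 2463 and 1503 in duodenum. Within each of the 3 groups of b/b rats the jejunum was higher, by 0.42, 0.98 and 1.42, although the groups overlapped. The b/b change of 0.94 ± 0.37 was not called in the fit without the block (limma adjusted p = 0.391) and was called with it (limma adjusted p = 0.0343). In fits without the block that left out 1 b/b array it was 0.47 to 1.33 and was called in 0 of 6. The lowest value came without b/b duodenum replicate 3. In +/b rats the change was -0.10 ± 0.37, with 1 of the 3 groups of rats higher in the jejunum. The difference between the genotypes, 1.04 ± 0.53, was not called (limma adjusted p = 1.00, and 0.965 with the block).

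Gata6, which in the mouse is made along the whole intestine, had 1427, 1036 and 1038 on its brighter probe set in b/b jejunum, against 1512, 898 and 506 in b/b duodenum. In +/b jejunum the signals were 981, 1238 and 1162, against 1024, 1019.9 and 1457 in +/b duodenum. The groups overlapped in both genotypes, and the mean change was 0.17 ± 0.22 (limma adjusted p = 0.806, interval from -0.30 to 0.64). Its sign turned to -0.07 without b/b duodenum replicate 3 and +/b duodenum replicate 2. The dimmer probe sets of Gata4 and Gata6 had mean changes of 0.04 each.

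Hnf4a, the nuclear receptor of absorptive cells, had signals on its brightest probe set of 9923, 8227 and 7552 in b/b jejunum, against 9632, 10337 and 9567 in b/b duodenum. Arrays of +/b rats gave 8231, 8284 and 7365 in jejunum, against 9928, 7344 and 9557 in duodenum. The groups overlapped in both genotypes, and the mean change was -0.18 ± 0.13 (limma adjusted p = 0.619, interval from -0.47 to 0.10). The 3 Hnf4a probe sets disagreed in sign in b/b rats, where 2 were above 0 and 1 below, with changes from -0.21 to 0.58. Their SE was 0.19 to 0.46, each interval included 0, and 0 of the 3 were called (limma adjusted p = 0.770 to 0.812). In +/b rats all 3 were below 0, from -0.44 to -0.16. The files do not say which transcript each probe set reads.

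**Figure D2:**
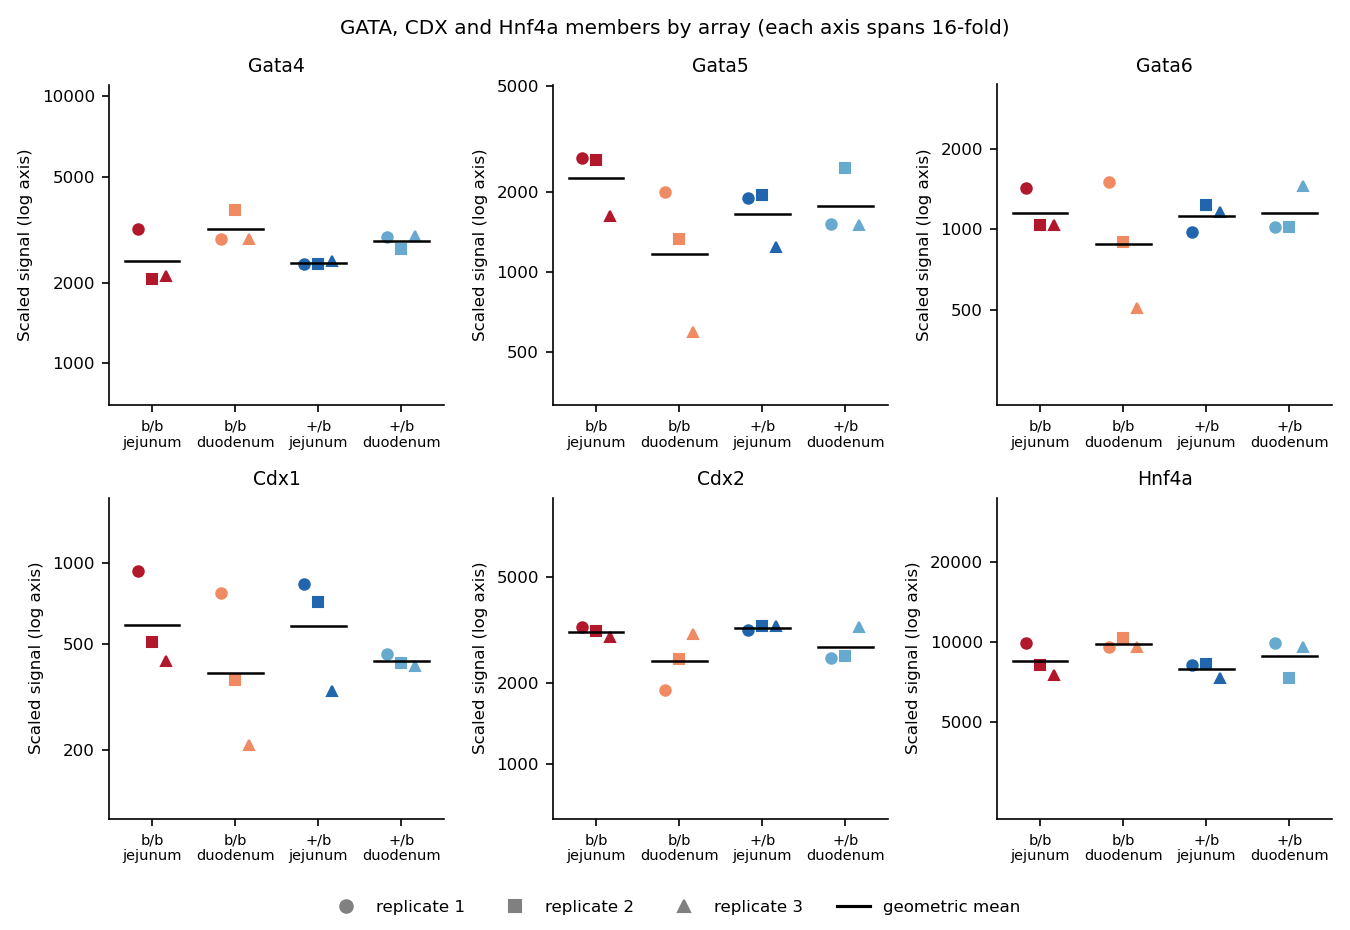
Scaled signal (log axis, each panel spanning 16-fold) of the brightest probe set of Gata4, Gata5, Gata6, Cdx1, Cdx2 and Hnf4a in each of the 12 arrays, with the geometric mean of each group as a line. The jejunal and duodenal arrays overlap in every panel over both genotypes, and the lowest Gata5 is 595 in b/b duodenum replicate 3.

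**Figure D3:**
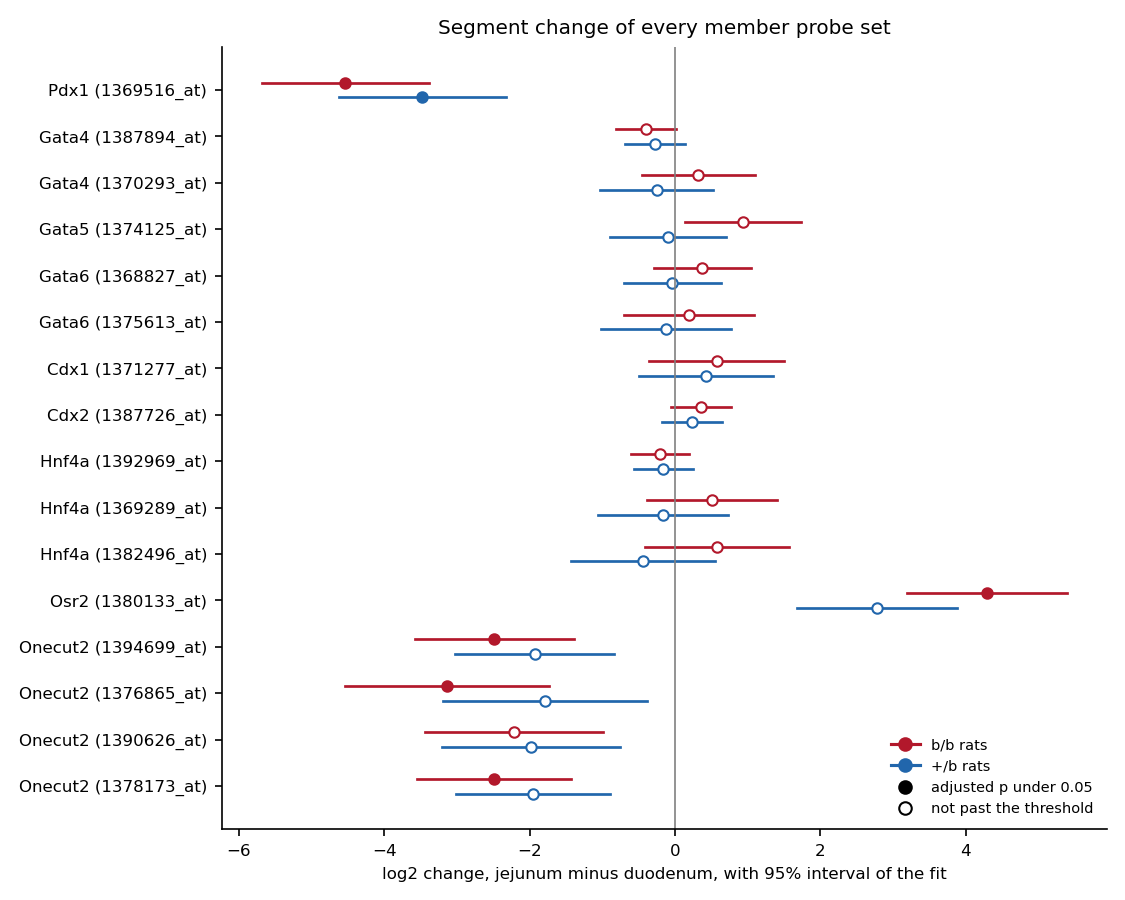
Change of all 16 member probe sets in log2 units (jejunum minus duodenum) with its 95% interval, for b/b rats above +/b rats in each pair, filled where the adjusted p was under 0.05. Pdx1 lies at -4.53 and -3.48, Osr2 at 4.29 and 2.78, the 4 Onecut2 probe sets lie between -3.14 and -1.79, and the remaining 10 lie between -0.44 and 0.94.

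The 3 genes that differed between segments also varied within a segment. In the jejunum, replicate 3 of each genotype had the highest Pdx1 and the highest Onecut2 of its group, together with the lowest Osr2. It also had the lowest summed enterocyte marker signal of its group. On all 4 Onecut2 probe sets b/b jejunum replicate 2 was the lowest of the 6 jejunal arrays and +/b jejunum replicate 3 the highest. In the duodenum, b/b replicate 3 had the highest Pdx1 (2707) and the lowest Osr2 (23.4) of the 6 arrays, while +/b replicate 2 had the lowest Pdx1 (539) and the highest Osr2 (256). The arrays share their scaling and, within a number and genotype, their rats, so these orders are a description only. Leaving out jejunum replicate 3 of both genotypes gave mean changes of -4.44 for Pdx1 (limma adjusted p = 7.63e-05) and 3.85 for Osr2 (limma adjusted p = 0.00054).

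Markers of tissues next to the scraped stretch were read beside these values. The summed signal of 8 of 9 stomach markers on the array was 1109, 2346 and 4130 in b/b duodenum replicates 1, 2 and 3, against 416, 1006 and 617 in +/b duodenum. In the jejunum it lay between 503 and 577 in b/b rats, against 377 to 507 in +/b rats. Of the 4 stomach markers tested, 1 was called lower in b/b jejunum than in b/b duodenum and 0 in +/b rats or for the mean of both genotypes. All 4 were below 0 in both genotypes, and with the rat groups as a block 2 were called lower in b/b rats, 0 in +/b rats and 2 for the mean. Of the 6 Brunner gland markers, which mark the mucous glands of the proximal duodenum, 5 were on the array. Their summed signal was 14335 to 15048 in b/b duodenum and 27398, 7020.2 and 18173 in +/b duodenum replicates 1, 2 and 3. It was 2214 to 6229 in b/b jejunum and 3631 to 9859 in +/b jejunum. In b/b duodenum the summed stomach marker signal and Pdx1 (1132, 1777 and 2707) both rose from replicate 1 to replicate 3. Replicate 2 of +/b duodenum, with the lowest duodenal Pdx1, had the lowest summed Brunner gland signal of the duodenal arrays but the highest stomach marker signal of its group. By mean log2 signal its Brunner gland markers were instead the highest of its group, at 7.85 against 7.59 and 7.45 in replicates 1 and 3. The part of the sampled position in the member values was not tested.

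**Figure D4:**
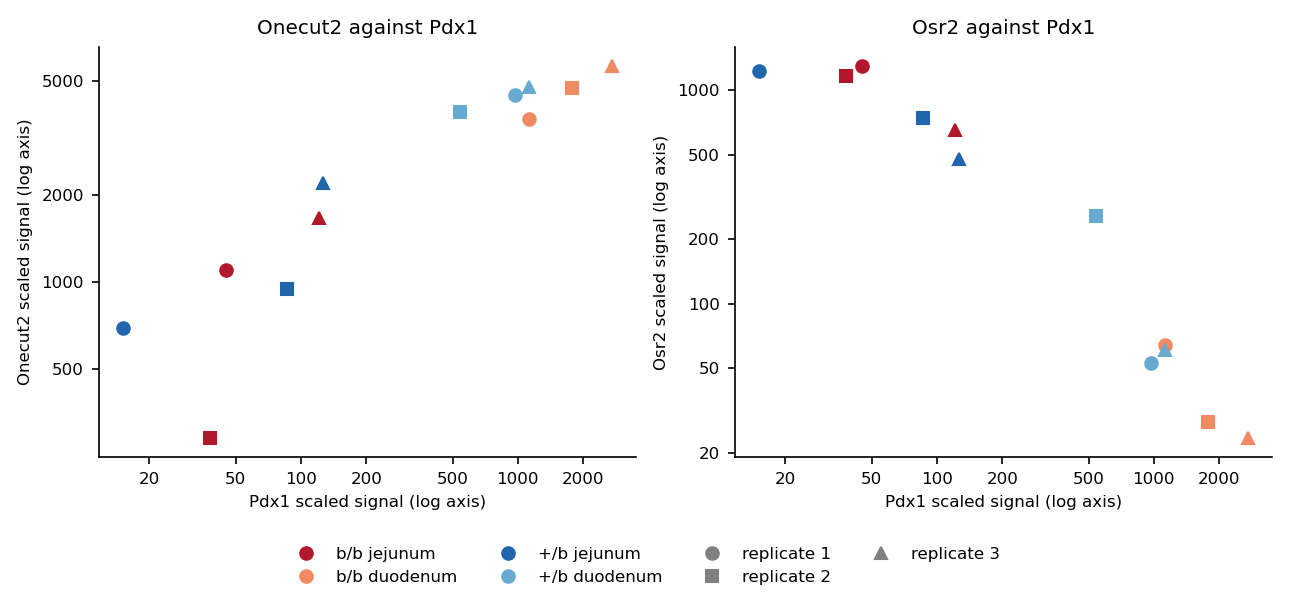
Onecut2 (left, brightest probe set) and Osr2 (right) against Pdx1 in the 12 arrays, as scaled signals on log axes, coloured by group with replicate number as the symbol. The 6 jejunal arrays lie at Pdx1 signals of 127 and below and the 6 duodenal arrays at 539 and above, and +/b duodenum replicate 2 is the duodenal array nearest to the jejunal ones in the right panel.

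The genotypes were compared within each segment. In the duodenum 0 of 16 member probe sets were called between b/b and +/b rats, against 0.0396% of all probe sets, and 1 member had an unadjusted p under 0.05 in limma, against 6.17% of all probe sets. That member was Osr2, with a change (b/b minus +/b) of -1.13 ± 0.51 (limma adjusted p = 0.789), and its groups overlapped. Without +/b duodenum replicate 2 it was -0.49, and -0.29 when b/b duodenum replicate 3 was left out as well. Pdx1 averaged 1872 ± 792 in b/b duodenum and 878 ± 304 in +/b duodenum (SD, n = 3 each). Its groups did not overlap, as was so for 8.70% of all probe sets, but they nearly met. The lowest b/b signal was 1132 and the highest +/b signal 1126, in replicate 3, an array that had been multiplied by 3.95. The fitted Pdx1 difference was 1.06 ± 0.53 (limma adjusted p = 0.791, interval from -0.09 to 2.20). The Pdx1 change was 0.44 without +/b duodenum replicate 2 and b/b duodenum replicate 3 (limma adjusted p = 0.879). All 4 stomach markers tested were also higher in b/b than in +/b duodenum, with a median change of 2.16, and 0 were called. Their part in the Pdx1 difference was not tested.

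In the jejunum 0 of 16 were called, against 0.0339% of all probe sets, and 0 had an unadjusted p under 0.05 in limma (1.34% of all). There Pdx1 averaged 68.1 ± 46.1 in b/b and 76.0 ± 56.4 in +/b rats. Osr2 averaged 1039 ± 344 in b/b and 814 ± 381 in +/b jejunum, and Onecut2 on its brightest probe set averaged 1017 ± 692 and 1282 ± 813 (SD, n = 3 each). These spreads leave wide intervals, from -1.15 to 1.14 for the Pdx1 change between b/b and +/b jejunum and from -0.71 to 1.49 for that of Osr2.

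Whether the segment changes differed between genotypes was tested as an interaction. The segment change of Osr2 was larger in b/b than in +/b rats by 1.52 ± 0.73, and that of Pdx1 differed by -1.06 ± 0.76, a larger drop in b/b rats. The Osr2 value was 0.88 without +/b duodenum replicate 2, and the Pdx1 value was -1.71 without +/b jejunum replicate 1 and -0.61 without +/b jejunum replicate 3. Without +/b duodenum replicate 2 and b/b duodenum replicate 3 the value was 0.68 for Osr2 and -0.44 for Pdx1. Neither passed (limma adjusted p = 1.00 for each), and 0 of 16 members and 0% of all probe sets were called, with 306 of all (1.73%) and 0 of the members at an unadjusted p under 0.05. With the rat groups as a block 2 probe sets were called in all, none of them a member, against 0.0113%. So the call of Osr2 in b/b but not in +/b rats is no shown difference between the genotypes.

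Other probe sets with 1 gene were ranked by how closely their values, centred on their own mean, followed those of Pdx1 over the 12 arrays. The nearest was Slc40a1, the basolateral iron exporter, with a root mean square difference of 0.55 in log2 units, where Pdx1 itself had an SD of 2.23. It changed by -3.60 in b/b rats and by -2.73 in +/b rats. Next came Slc4a7, a sodium bicarbonate cotransporter (0.67), Adh7, an alcohol dehydrogenase (0.78), Ugt2b35, a glucuronosyltransferase (0.79), and S100g, a calcium-binding protein of absorptive cells (0.79). The 5 mean changes lay between -4.32 for S100g and -2.93 for Ugt2b35.

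The probe sets nearest to Osr2 were those of Cmahp at 0.38, Nts, the neurotensin gene of enteroendocrine cells, at 0.50, Fam151a at 0.54, Cubn at 0.57 and Hspa12a at 0.62, where Osr2 had an SD of 2.00. Cubn encodes cubilin, a receptor for vitamin B12 bound to intrinsic factor. Cmahp changed by 3.86 in b/b rats and 2.42 in +/b rats, Nts by 3.94 and 2.86, and Cubn by 3.70 and 2.41. All 10 of these neighbours were ranked on the same 12 arrays that show the segment difference, so their changes are no separate evidence.

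Other transcription factors of the gut were read from 3 lists, with 1 probe set for each gene. Of all probe sets tested, 1.40% were called for the mean of both genotypes. Of the 25 endoderm and enterocyte factors tested (of 31 on the array), 0 were higher and 1 was lower in the jejunum for the mean of both genotypes. It was Pparg, a fatty acid receptor of the nuclear receptor family, with 429.7 ± 90.7 in jejunum and 904 ± 257 in duodenum (SD, n = 6 each) and a change of -1.03 ± 0.17 (limma adjusted p = 0.00603). The other 24 were not called. Those of smallest p were Ehf, an epithelial ETS factor (0.55 ± 0.25), Zfpm1, a cofactor of GATA proteins (-0.48 ± 0.25), and Foxa3, a forkhead factor of endoderm (0.37 ± 0.21), with limma adjusted p = 0.383 to 0.500. The median change of this list was 0.04, against 0.07 for all probe sets tested.

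Of the 8 crypt and secretory lineage factors tested (of 18 on the array), 1 was higher and 0 were lower. Sox4, a factor of progenitor cells, had 885 ± 249 in jejunum and 445 ± 137 in duodenum and changed by 0.96 ± 0.21 (limma adjusted p = 0.0397). The list had a median of 0.28, and 7 of 8 genes were above 0. Ascl2, a crypt stem cell factor (0.63 ± 0.30), Hes1, a Notch target (0.23 ± 0.13), and Spdef, a goblet cell factor (0.32 ± 0.19), were not called (limma adjusted p = 0.407 to 0.529). Of the 5 crypt stem markers read as a check, 1 was called, higher, and 4 were above 0. Their summed signal was 3608 to 4636 in b/b jejunum and 1897 to 2924 in b/b duodenum, against 4829 to 7776 in +/b jejunum and 2922 to 5657 in +/b duodenum, and their part in the Sox4 change was not tested.

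Of the 10 Hox and mesenchymal patterning factors tested (of 30 on the array), 0 were higher and 2 were lower, both of them TALE homeodomain proteins, the class that binds DNA together with Hox and PDX1 proteins. Meis2 had 61.1 ± 20.5 in jejunum and 421 ± 254 in duodenum and changed by -2.33 ± 0.37 (limma adjusted p = 0.00511). Pbx3 had 308.0 ± 68.1 in jejunum and 608 ± 148 in duodenum and changed by -0.94 ± 0.20 (limma adjusted p = 0.0340). Hoxb3 had a change of -0.84 ± 0.35 and was not called (limma adjusted p = 0.328). The list's median was 0.01. Only 10 of its 30 genes were bright enough to be tested, so most Hox genes gave no value here.

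**Figure D5:**
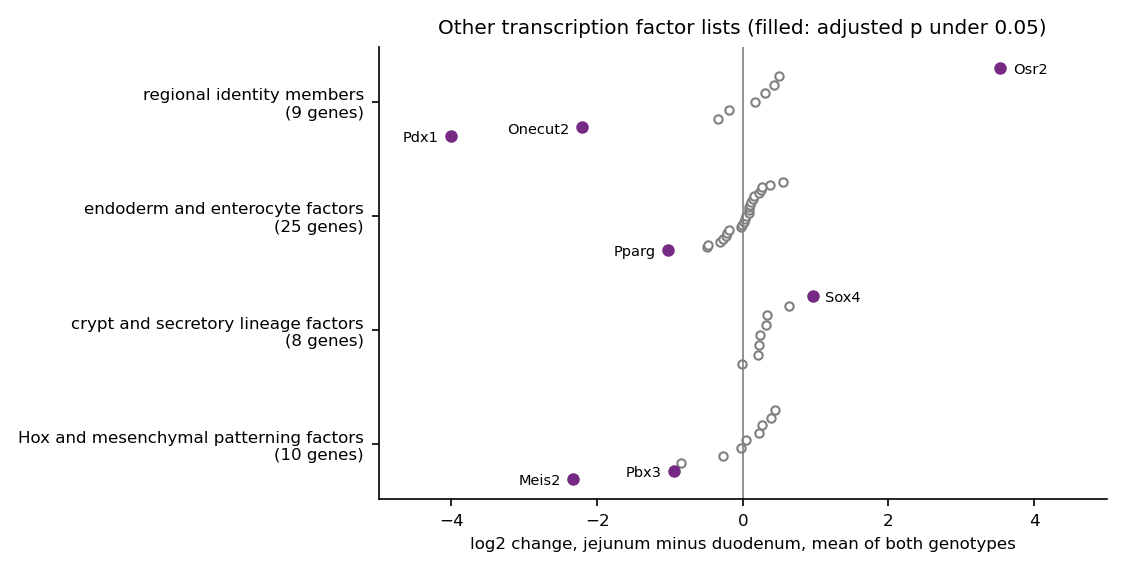
Change between the segments (log2, jejunum minus duodenum, mean of both genotypes) of the 9 members, read by their brightest probe set, and of the tested genes of 3 other transcription factor lists, with genes of adjusted p under 0.05 filled and named. Pdx1 (-4.00), Osr2 (3.54), Meis2 (-2.33) and Onecut2 (-2.21) lie farthest from 0, and every other gene shown lies between -1.03 and 0.96.

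Genes described as targets of CDX2, HNF4A or GATA4 were counted in the same way. All 31 on the array were tested, and 1 was higher and 0 were lower in the jejunum, against 1.40% of all probe sets called. The median change was -0.19, with 6 of 31 genes above 0. Fabp6, the bile acid binding protein that is strongest in the ileum, changed by 3.35 ± 0.65 (limma adjusted p = 0.0187), with 1211 ± 2030 in jejunum and 63.4 ± 75.0 in duodenum. Its jejunal SD exceeded its mean, so the 6 jejunal arrays were far from equal. With the rat groups as a block 6 of the 31 were called, 2 higher and 4 lower, against 4.49% of all probe sets. Besides Fabp6 these were Mep1a, a brush border protease (0.65 ± 0.19), Cftr, a chloride channel (-0.83 ± 0.21), Ada, adenosine deaminase (-0.87 ± 0.24), Alpi, intestinal alkaline phosphatase (-0.59 ± 0.24), and Heph, a ferroxidase (-0.38 ± 0.13). Their adjusted p in limma was 0.0736 to 0.328 without the block and 0.00087 to 0.0384 with it.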

How the data were processed

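Total RNA was extracted with Trizol and column-purified before the usual Affymetrix labelling, per the labels' protocols. The deposited values were signal intensities for each probe set on a linear scale, and per the submitters' processing notes 10 of the 12 arrays were made with MAS5. Neither its version nor its settings are stated in the labels. In the values, 10 arrays had a 2% trimmed mean near 500 and 2 did not, so every array was multiplied to a trimmed mean of 500. Multiplying raises the noise of dim probe sets with it.

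Genes were named from the platform annotation. It gave 1 gene for 20826 probe sets, several for 436 and none for 9780, besides 57 control probe sets that were left out. Probe sets with a mean signal of at least 100 (17694) were tested as log2(signal + 16) in limma 3.58.1 (R 4.3.3), with 4 group means, eBayes with an intensity trend and two-sided p-values adjusted by Benjamini-Hochberg. No detection calls were used, and the number of arrays limits the precision.

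The members and the lists were chosen with earlier results of these data known. Named were all members, the 5 nearest genes of Pdx1 and Osr2, and the called members of each list with up to 4 others of smallest p. In the lists a gene stood for its probe set of highest mean. Enteroendocrine and blood markers were read as checks too. For the mean of both genotypes 3 of 10 enteroendocrine markers were higher and 2 lower, 1 of 4 blood markers was higher and 1 of 3 Brunner gland markers tested was lower.

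By the series design, jejunum and duodenum arrays of a genotype with the same number share their rats. Their deviations from the group means correlated at 0.158 to 0.382 (6 pairs). Those of different genotypes, which share only a number, correlated at -0.059 to 0.451 (12 pairs). Alternatives were the pseudocount, the filter, the scaling, the block, and arrays left out. Leaving out +/b duodenum replicate 2 with b/b duodenum replicate 3, or jejunum replicate 3 of both genotypes, was chosen after seeing the data. The fits were tested on simulated data. Promoters are from RefSeq (GRCr8), to whose table all 9 members matched.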

Additional observations from a re-analysis of the deposited data

How the results depend on the processing

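The changes of Pdx1, Osr2 and Onecut2 that were called kept their direction in 162 of 162 alternative fits (9 results), but lost the call in 31. Some of these fits, such as those with the block or without the filter, leave the estimate as it was and could not turn its sign. Uncalled member values kept their direction in 602 of 636 (36 results). In +/b rats a pseudocount of 1 gave 6 calls, quantile normalization 5, and leaving out both arrays deposited at another scale 5, with 0 members among them in each. In that last fit 1 array remained in +/b duodenum, which was assumed to vary like the other groups. No filter gave 17 calls in +/b rats. With both arrays out, 2 members were called in b/b rats, 137 probe sets for the mean of both genotypes and 3 between the genotypes in the duodenum, and in +/b rats Gata5 (0.13) and Gata6 (0.13) turned sign.

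With the rat group as a block for the pairing, 431 probe sets were called in b/b rats and 86 in +/b rats (2 of them members). The same block gave 795 for the mean and 2 for the interaction. The genotype contrasts were blocked on replicate number instead, which different rats share, and 15 were called between the genotypes in the duodenum. Neither block changed a member call other than those of Osr2 in +/b rats and of Gata5 and 1 Onecut2 probe set in b/b rats.

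Values left as deposited, with 2 arrays at another scale, gave 40 calls in b/b rats (3 members), 8673 in +/b rats (5 members), 2 members for the mean, 366 between the genotypes in the duodenum (1 member), 2 in the jejunum and 2 for the interaction. This turned Gata4 (1.45), Gata5 (1.61), Gata6 (1.64) and Hnf4a (1.58) positive in +/b rats and Gata4 (0.52) and Hnf4a (0.69) positive for the mean. Between b/b and +/b duodenum it turned Gata5 (1.11) and Osr2 (0.20), and Gata5 in the interaction (-0.67).

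Without +/b duodenum replicate 2 and b/b duodenum replicate 3, 65 probe sets were called in b/b rats (2 members), 2 members in +/b rats, 4 probe sets between the genotypes in the duodenum and 3 in the jejunum. Turned in sign were Gata6 in b/b rats (-0.015) and for the mean (-0.068), Gata5 in +/b rats (0.14), and Gata5 (0.11) and Onecut2 (-0.15) between the genotypes in the duodenum. Without jejunum replicate 3 of both genotypes there were 66 calls in b/b rats, 158 for the mean and 0 between the genotypes in the jejunum, and Gata5 in +/b rats was 0.11. In the jejunum the genotype difference of Pdx1, near 0 in the fit used, was 0.096 with a pseudocount of 1, 0.038 with median centring and 0.025 without those replicates, and 3 probe sets were called with a pseudocount of 1.

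Leaving out 1 array at a time gave 33 to 235 calls in b/b rats (2 to 6 members), 2 to 21 in +/b rats (0 to 2 members), 139 to 354 for the mean, 2 to 6 between the genotypes in the jejunum and 0 to 2 for the interaction. Segment changes then ranged from -0.015 to 0.76 for Gata6 in b/b rats, -0.12 to 0.13 in +/b rats and -0.025 to 0.36 for the mean, and from -0.22 to 0.14 for Gata5 in +/b rats. Genotype differences ranged from -0.063 to 0.24 for Onecut2 in the duodenum, -0.98 to 0.25 in the jejunum and -1.06 to 0.17 in the interaction, and from -0.65 to 0.44 for Pdx1 in the jejunum. The cause of these shifts was not tested. Groups of 3 arrays cannot resolve small changes, and dim signals have no order near the background.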
